A study of Rattus norvegicus with 31 samples.

Results

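The genes of the proteasome were followed across the blood cells of adult rats whose dams had or had not been fed less during pregnancy. Members were all array probes, other than controls, with a gene name of the form Psma to Psmg followed by a number, which gave 56 probes of 48 genes, out of 41012 probes of 34235 gene names in all. Of these, 54 probes of 46 genes were well above background on all 31 arrays and were tested. Psma8, a subunit of the testis, was well above background on 4 arrays and Psmb11, a subunit of the thymus, on 0 arrays, and neither was tested. One member, Psmc3ip, encodes a protein that binds a subunit and is not itself a subunit. A further 7 probes are described as proteasome genes in the files but carry no such name and were not taken.

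PBMC, the mononuclear fraction of blood that holds lymphocytes and monocytes, were compared in 3 groups. The 13 CR-L samples came from offspring of dams restricted in calories by 20% from day 1 to day 12 of pregnancy. These offspring were given leptin, a hormone of fat tissue that milk also carries, until postnatal day 21, at an average of 5 times what milk supplies. The 11 CR samples came from offspring of equally restricted dams that were suckled without added leptin, and the 7 WT samples from offspring of dams that were not restricted. The labels name offspring of both sexes, and all 3 groups ate chow freely for 4 months before blood was drawn. The 31 samples came from at most 16 litters, and the labels give neither litter nor sex per sample, so that p-values across samples may be too small. The comparison of CR-L with CR addresses what leptin in suckling changes after restriction.

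The proteasome is the protease that degrades proteins marked with ubiquitin. Its 20S core is a barrel of outer alpha and inner beta rings, of which Psmb5, Psmb6 and Psmb7 hold the active sites, and the 19S cap with its ATPases (Psmc) and non-ATPase subunits (Psmd) recognises and unfolds the substrate. In immune cells, and under interferon gamma, Psmb8, Psmb9 and Psmb10 replace the catalytic subunits in the immunoproteasome, and Psme1 and Psme2 form the PA28 activator, which favours peptides for presentation on MHC class I.

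Each value below is a log2 ratio of a sample over the reference pool that was hybridised in green on every array, so 0 is the level of the pool. Probes differ in their response, and levels were not compared between genes. A value on this array is the signal of 60 bases and not of the whole transcript. Probe sequences are shown for Psmb5, which passed the test in CR-L against WT, and for Psma2 and Psmb8, which passed in no comparison but varied most between animals of a group. They are written 5′ to 3′ in the sense of the transcript, with positions on rn4. The Psma2 probe lies at chr17:58736661-58738012 on the minus strand, a span longer than the probe. The Psmb5 probe lies at chr15:32690134-32690193 and that of Psmb8 at chr20:4787980-4788039, both on the minus strand.
Psma2 probe: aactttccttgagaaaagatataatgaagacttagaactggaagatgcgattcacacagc
Psmb5 probe: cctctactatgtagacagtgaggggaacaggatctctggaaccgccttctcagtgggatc
Psmb8 probe: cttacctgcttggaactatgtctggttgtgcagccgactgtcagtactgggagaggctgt

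Promoters are shown for members that differ in known control. Of the 48 genes, 43 had a promoter of 250 bases before to 50 bases after the start in the RefSeq table (GRCr8). On both strands, the letters of the interferon-stimulated response element (GAAA, any 2 bases, GAAA) were found in 3 of the 5 immunoproteasome promoters, 4 of the other 38 members (10.5%) and 3.92% of all 33469 promoters. The letters TGACNNNGC of the antioxidant response element, which Nfe2l1 and Nfe2l2 bind, were in 8 member promoters (18.6%), against 12.1% of all promoters. CCAAT was in 48.8% of member promoters, against 37.5% of all promoters, and TTCNNNGAA of the gamma-activated site in 9.3%, against 8.87%. In 1 member promoter matches of different motifs overlapped. Capitals below mark every match, which is a match of letters only. The interferon element begins at -73 and -17 from the start in Psmb10, at -53 in Psme2 and, on the other strand, at -4 in Psmb8. The antioxidant element begins at -60 in Psmb5. Psmb8 also holds the letters of the gamma-activated site at -245 and, on the other strand, of CCAAT at -73.
Psmb8 promoter, chr20:4656982-4657281, minus strand: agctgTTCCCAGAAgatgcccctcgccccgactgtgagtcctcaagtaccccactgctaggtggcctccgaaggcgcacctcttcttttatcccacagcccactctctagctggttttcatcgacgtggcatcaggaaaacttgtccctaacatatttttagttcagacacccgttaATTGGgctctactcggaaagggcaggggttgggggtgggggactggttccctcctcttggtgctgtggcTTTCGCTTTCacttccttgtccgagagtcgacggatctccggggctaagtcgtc
Psmb10 promoter, chr19:50743243-50743542, minus strand: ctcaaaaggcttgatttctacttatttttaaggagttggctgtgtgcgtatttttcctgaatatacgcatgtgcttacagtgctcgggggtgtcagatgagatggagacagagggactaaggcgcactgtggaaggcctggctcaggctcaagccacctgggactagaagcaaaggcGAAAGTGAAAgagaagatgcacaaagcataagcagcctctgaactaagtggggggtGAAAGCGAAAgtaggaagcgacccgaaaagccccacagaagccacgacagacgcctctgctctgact
Psme2 promoter, chr15:33052702-33053001, minus strand: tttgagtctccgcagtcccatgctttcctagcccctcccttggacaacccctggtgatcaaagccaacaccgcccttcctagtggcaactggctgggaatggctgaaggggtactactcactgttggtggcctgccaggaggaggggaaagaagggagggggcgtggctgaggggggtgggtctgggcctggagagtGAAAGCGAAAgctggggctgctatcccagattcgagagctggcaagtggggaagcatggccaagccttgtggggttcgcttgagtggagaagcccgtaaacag
Psmb5 promoter, chr15:32047330-32047629, minus strand: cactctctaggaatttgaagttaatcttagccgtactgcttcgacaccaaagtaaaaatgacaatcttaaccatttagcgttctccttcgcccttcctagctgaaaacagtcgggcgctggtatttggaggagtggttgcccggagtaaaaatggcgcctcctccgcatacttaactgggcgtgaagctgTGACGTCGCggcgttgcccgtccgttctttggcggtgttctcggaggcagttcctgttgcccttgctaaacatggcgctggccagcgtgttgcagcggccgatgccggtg

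Markers of T cells (10 of 10), B cells (7 of 9), NK and cytotoxic cells (7 of 7), monocytes (6 of 7) and also of granulocytes (8 of 8), red cells (8 of 9) and platelets (7 of 9) were measured. No probe could be matched to the others by gene name or accession. No marker of these lists passed the test in any comparison. The mean of the red cell markers ranged from -2.78 to 1.74 in CR-L, from -2.42 to 1.01 in CR and from -1.30 to 0.28 in WT. For the platelet markers the ranges were -3.18 to 0.94 in CR-L, -0.66 to 0.86 in CR and -1.64 to 0.24 in WT. Their part in the values below was not tested. In such bulk samples, fewer cells of a type and less RNA per cell cannot be told apart.

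One array stood apart before any comparison. In CR-L replicate 5, 20 of the 46 tested genes lay more than 2 within-group SD from the group mean, and 22.3% of all probes tested did. In the other 30 arrays the count was 0 to 5 genes. CR-L replicate 5 was below every other array in 16 of the 46 genes and above every other in 6. The catalytic subunit Psmb6 was at -0.57 there, against -0.099 to 0.26 in the other arrays, and the beta subunit Psmb1 was at -0.65, against -0.33 to 0.061. The PA28 subunit Psme1 was at -0.47, against -0.071 to 0.22. By brightest probe, the low values of CR-L replicate 5 fell in part of the rings, of the cap and of the immunoproteasome. None of the cap ATPases (Psmc) was below the mean of the other CR-L arrays. Psmb9 and Psmb10 lay within the range of the other arrays, and Psmc2, Psmd6 and Psmb4 lay above it. Psmd2, a scaffold subunit of the cap, was at 0.38, against -0.32 to -0.0065 in the other arrays. The other Psmd2 probe stood at -0.71 in the same array, against -0.32 to 0.11 in the other 30. Probes of a gene also differed in sign there for Psmd7 (0.12, -0.32 and -0.76), Psmc4 (0.21 and -0.25) and Psmd1 (-0.13 and 0.35). They are listed from the 3′ end. The probe nearest the 3′ end was the highest in Psmd2, Psmd7, Psmc4, Psmc6, Psma6 and Psme4, and the lower in Psmd1. That order was not particular to CR-L replicate 5. In CR-L replicate 11 the probe nearest the 3′ end was the highest in all of these genes, Psmd1 included. The order was not counted over the remaining arrays. A low value in CR-L replicate 5 thus did not always hold over a gene's probes. Whether RNA quality had a part was not tested. The median red intensity of CR-L replicate 5 (77.7) and its share of spots well above background (58.8%) lay within those of the other arrays. Its mean over B cell markers was -0.84 and over monocyte markers -0.69, near the low end of the other arrays (-0.97 and -0.72), and the part of these in its values was not tested. By brightness, WT replicate 6 stood apart, with a median red intensity of 235 and 83.6% of spots well above background, against 69.8 to 93.9 and 57.5% to 65.0% in the other 30 arrays. It had 1 of the 46 genes beyond 2 SD, and 5.72% of all probes. Genes named in this paragraph, and those named for their spread below, were chosen after their values were seen.

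**Figure D1:**
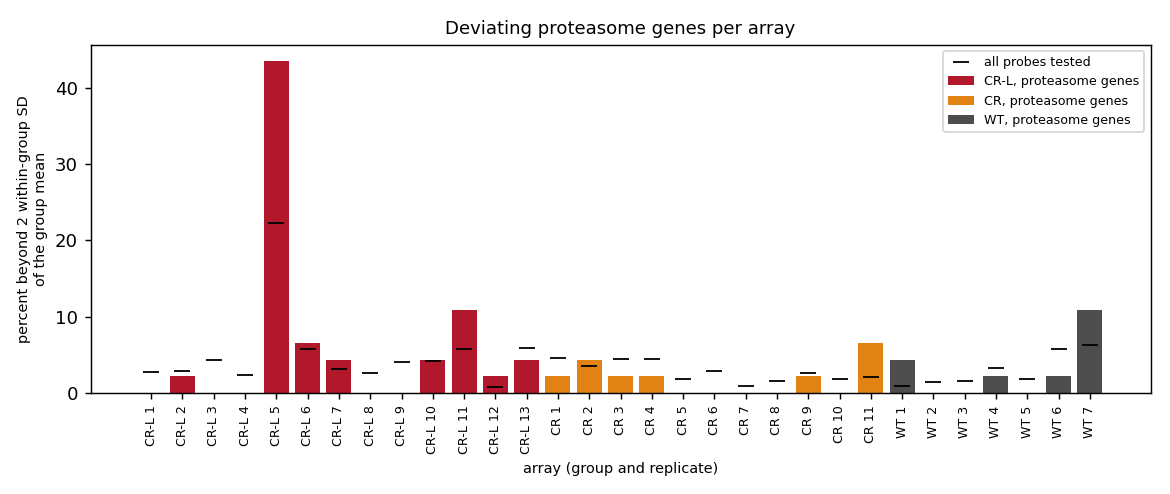
Percent of the 46 tested proteasome genes (bars) and of all 26721 probes tested (black marks) that lay beyond 2 within-group SD of their group mean, for each array, with CR-L, CR and WT arrays from left to right. CR-L replicate 5 had 20 of 46 genes and 22.3% of all probes beyond it, and no other array had more than 5 genes.

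In offspring of restricted dams that had received leptin, 3 proteasome genes were higher than in WT and 0 were lower by limma with adjustment over all 26721 probes. These were Psma5, an alpha subunit of the core, Psmb5, the chymotrypsin-like catalytic subunit, and Psme3, which forms the nuclear activator PA28 gamma. They make 3 of 54 probes, while 3.48% of all probes were called in this comparison, 2.04% higher and 1.44% lower, so the members' count is near the background. The differences were small, 1.19-fold for Psma5, 1.14-fold for Psme3 and 1.10-fold for Psmb5.

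Psma5 ranged from -0.35 to 0.14 with a median of -0.056 in CR-L, from -0.24 to 0.050 with a median of -0.060 in CR and from -0.60 to 0.13 with a median of -0.39 in WT. A single WT array, replicate 7 at 0.13, lay in the upper range of CR-L, and the other WT arrays were at -0.18 or lower. CR-L exceeded WT by 0.25 ± 0.073 (SE; limma, adjusted p = 0.0486).

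Psmb5 ranged from -0.19 to 0.044 with a median of -0.022 in CR-L, from -0.16 to -0.019 with a median of -0.098 in CR and from -0.30 to 0.0069 with a median of -0.18 in WT. The groups overlapped, and CR lay between CR-L and WT by mean and by median. The difference between CR-L and WT was 0.14 ± 0.038 (SE; limma, adjusted p = 0.0301).

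Psme3 ranged from -0.081 to 0.31 with a median of 0.075 in CR-L, from -0.11 to 0.16 with a median of 0.10 in CR and from -0.26 to 0.032 with a median of -0.074 in WT. The highest CR-L array was replicate 5, and WT overlapped the lower part of CR-L. The difference between CR-L and WT was 0.19 ± 0.050 (SE; limma, adjusted p = 0.0254), and 0.17 without CR-L replicate 5 (adjusted p = 0.0325).

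Within the 7 slides that held a WT array, 1 WT array in each, the CR-L mean exceeded WT in 6 slides for each of the 3 genes. Their calls were near the threshold. Leaving out single arrays ended the call of Psma5 in 24 of 31 fits, of Psmb5 in 5 and of Psme3 in 3. Without WT replicate 4 or without WT replicate 6, the brightest array, 0 of the 3 passed. Of all probes, 1.86% and 2.3% passed in those fits. Without WT replicate 6 the differences were 0.27 for Psma5, 0.14 for Psmb5 and 0.17 for Psme3 (limma, adjusted p = 0.054, 0.0531 and 0.0776). With slide as a block in limma, Psmb5 no longer passed (adjusted p = 0.0514). With the red channel alone, Agilent's own log ratio or the authors' series table, 0 member probes passed. Of all probes, 3.28%, 3.63% and 2.49% passed in these fits, in that order.

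**Figure D2:**
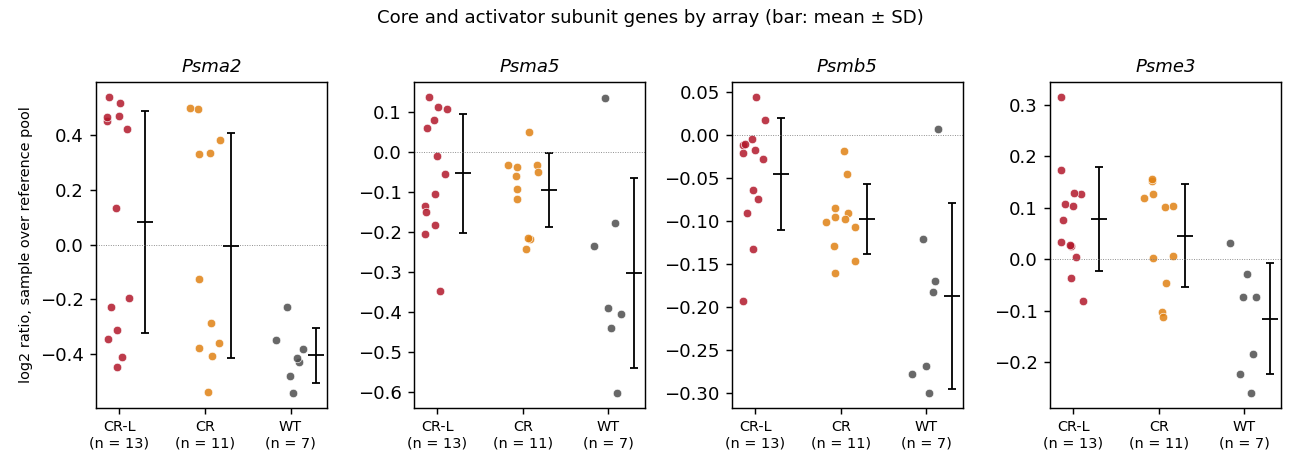
Log2 ratio of each sample over the reference pool for Psma2, Psma5, Psmb5 and Psme3 in CR-L (n = 13), CR (n = 11) and WT (n = 7), with bars for the mean ± SD and a separate vertical scale in each panel. Psma2 falls into high and low arrays in CR-L and CR while all 7 WT arrays are low, and the groups overlap in the other panels.

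The largest difference among the members belonged to Psma2, another alpha subunit, which did not pass the test. In CR-L, 6 arrays lay between -0.45 and -0.20 and 7 between 0.13 and 0.54. In CR, 6 arrays lay between -0.54 and -0.13 and 5 between 0.33 and 0.50. All 7 WT arrays lay between -0.54 and -0.23. Over all 31 arrays the values left a gap from -0.13 to 0.13, with arrays of CR-L and CR on both sides of it and WT arrays on the lower side. The group means were 0.082 ± 0.41 in CR-L (SD, n = 13), -0.0045 ± 0.41 in CR (SD, n = 11) and -0.40 ± 0.10 in WT (SD, n = 7). The difference was 0.49 ± 0.16 between CR-L and WT (SE; limma, adjusted p = 0.0916) and 0.40 ± 0.17 between CR and WT (adjusted p = 0.305). The mean of CR-L was above WT in 7 of 7 slides, by 0.24 to 0.95, and that of CR in 6 of 7. Each of these slides held 1 WT array, and all WT arrays lay below the gap. These counts are therefore not separate from it. The within-group SD of Psma2, at 0.37, was wider than that of 95.6% of all probes tested. No other probe carried the name Psma2, and whether related animals share a level was not tested, since the labels name no litter.

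By subcomplex, 4 of the 7 alpha subunits were above 0 in CR-L minus WT, with a median of 0.096 and 1 called. Of the 7 constitutive beta subunits 2 were above 0, with a median of -0.0068 and 1 called. The lowest difference among all members' brightest probes was that of Psmb1, a structural beta subunit, at -0.11 ± 0.061 (SE; limma, adjusted p = 0.394), and it was -0.067 without CR-L replicate 5. The catalytic subunits Psmb6 and Psmb7 stood at -0.071 ± 0.072 and -0.070 ± 0.058 (SE; limma, adjusted p = 0.688 and 0.607), on the other side of 0 from Psmb5. Without CR-L replicate 5, Psmb6 stood at -0.021 and Psmb7 at -0.045.

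In the 19S cap, 2 of 6 ATPases (median -0.031) and 8 of 11 non-ATPase subunits (median 0.038) were above 0 in CR-L minus WT, between -0.10 and 0.12, and 0 passed. The other probe of the ATPase Psmc4 stood at 0.084 ± 0.053, against -0.063 ± 0.063 for the brightest. The non-ATPase subunit Psmd7 was among the lowest, at -0.10 ± 0.062 (SE; limma, adjusted p = 0.431). Of its other probes, one stood at 0.098 ± 0.042 and one at -0.19 ± 0.088, so probes of this gene disagreed in direction. All 3 other activators and inhibitor genes (Psme3, Psme4 and Psmf1) and 3 of 6 assembly chaperones were above 0 by their brightest probe, while the other probe of Psme4 stood at -0.014 ± 0.10. Over all 54 member probes 30 were above 0, with a median of 0.019, against 54.2% and 0.0094 over all probes tested. An unadjusted p under 0.05 was reached by 11 member probes, or 20.4%, against 16.5% of all probes.

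Of the 5 immunoproteasome genes 0 passed in any comparison. The spread was widest in Psmb8, which ranged from -1.10 to 0.26 with a median of -0.0070 in CR-L, from -0.71 to 0.20 with a median of 0.029 in CR and from -0.78 to 0.040 with a median of -0.29 in WT. Each group held 1 or more arrays well below the rest, CR-L replicate 5, CR replicate 2 and WT replicate 7. Psmb8 differed by 0.12 ± 0.14 between CR-L and WT and by 0.18 ± 0.14 between CR and WT (SE; limma, adjusted p = 0.728 and 0.656). Leaving out 1 array moved the first of these between 0.035, without WT replicate 7, and 0.21, without CR-L replicate 5.

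Psmb9 ranged from -0.15 to 0.32 in CR-L (median 0.035), from -0.15 to 0.11 in CR (median -0.013) and from -0.32 to 0.27 in WT (median -0.048). Psmb10 ranged from -0.032 to 0.24 in CR-L (median 0.13), from -0.16 to 0.15 in CR (median 0.060) and from -0.21 to 0.36 in WT (median 0.021). In both genes the groups overlapped throughout, and WT replicate 7 was the highest WT array. CR-L minus WT was 0.10 ± 0.066 for Psmb9 and 0.070 ± 0.056 for Psmb10 (SE; limma, adjusted p = 0.487 and 0.592). Without WT replicate 4 these were 0.056 and 0.028, and without WT replicate 7 they were 0.15 and 0.12.

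The PA28 subunits lay on the other side of 0. Psme1 ranged from -0.47 to 0.12 in CR-L (median 0.081), from -0.049 to 0.20 in CR (median 0.021) and from -0.0035 to 0.22 in WT (median 0.11). Psme2 ranged from -0.48 to -0.043 in CR-L (median -0.12), from -0.37 to -0.054 in CR (median -0.14) and from -0.28 to -0.043 in WT (median -0.12). The lowest array of both genes was CR-L replicate 5. CR-L minus WT was -0.089 ± 0.056 for Psme1 and -0.021 ± 0.053 for Psme2 (SE; limma, adjusted p = 0.458 and 0.899), and -0.048 and 0.0047 without that array. The 95% intervals of the 5 differences reached from -0.20 at the lowest (Psme1) to 0.41 at the highest (Psmb8), and differences of that size lie within what these arrays can leave undetected.

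**Figure D3:**
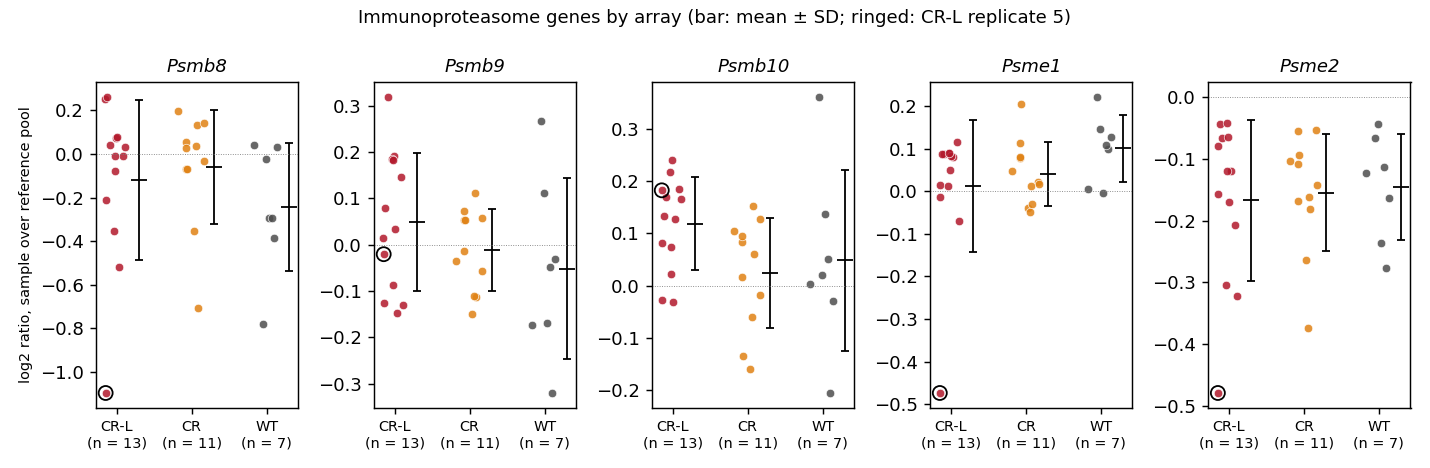
Log2 ratio over the reference pool of the 5 immunoproteasome genes in CR-L (n = 13), CR (n = 11) and WT (n = 7), with bars for the mean ± SD, a separate vertical scale in each panel and CR-L replicate 5 ringed. The groups overlap in every panel, and the ringed array is the lowest for Psmb8, Psme1 and Psme2.

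In offspring of restricted dams without leptin, 0 of 54 member probes differed from WT by limma after adjustment, against 0.483% of all probes called. An unadjusted p under 0.05 was reached by 7 member probes above 0 and 1 below, or 14.8%, against 12.2% of all probes. The largest differences above 0 after Psma2 were those of Psma5 (0.21 ± 0.075, adjusted p = 0.212) and Psmd5, a chaperone of 19S assembly (0.20 ± 0.064, adjusted p = 0.141). Psmd5 ranged from -0.18 to 0.13 in CR (median 0.064) and from -0.33 to -0.026 in WT (median -0.16). Of the 11 CR arrays 7 lay above the highest WT array, but the test over all probes was not passed. In CR-L it ranged from -0.38 to 0.17 (median -0.025). Psme3 stood at 0.16 ± 0.052 (adjusted p = 0.142) and Psmb5 at 0.089 ± 0.039 (adjusted p = 0.338). CR and CR-L were set against the same 7 WT arrays, so these values are not independent of those for CR-L.

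The lowest differences in CR minus WT by brightest probe were those of Psmd7 (-0.093 ± 0.064), the alpha subunit Psma6 (-0.086 ± 0.061) and the ATPase Psmc4 (-0.077 ± 0.064), with adjusted p of 0.602, 0.614 and 0.681 by limma. The dimmer Psma6 probe stood lower, at -0.22 ± 0.067 (adjusted p = 0.119). It ranged from -0.26 to 0.12 in CR and from 0.076 to 0.36 in WT. Without CR-L replicate 5, which enters the shared estimate of the spread, this probe passed, as the only member (adjusted p = 0.0353, against 0.898% of all probes called in that fit). Without WT replicate 7, Psma5 was the only member to pass (0.28, adjusted p = 0.0467 by limma, against 0.52% of all probes called in that fit). The other Psmc4 probe stood at 0.071 ± 0.055 and 1 other Psmd7 probe at 0.037 ± 0.043, both on the other side of 0. The probes of Psme4 differed likewise, at 0.051 ± 0.11 for the brightest and -0.020 ± 0.11 for the other. Of the immunoproteasome, Psmb9 stood at 0.040 ± 0.069, Psmb10 at -0.024 ± 0.058, Psme1 at -0.059 ± 0.058 and Psme2 at -0.0090 ± 0.055. Psmb6 and Psmb7 stood at -0.063 ± 0.074 and -0.061 ± 0.060. The median over the 54 probes was 0.0007, with 27 above 0, against a median of 0.011 and 55.2% above 0 over all probes tested.

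**Figure D4:**
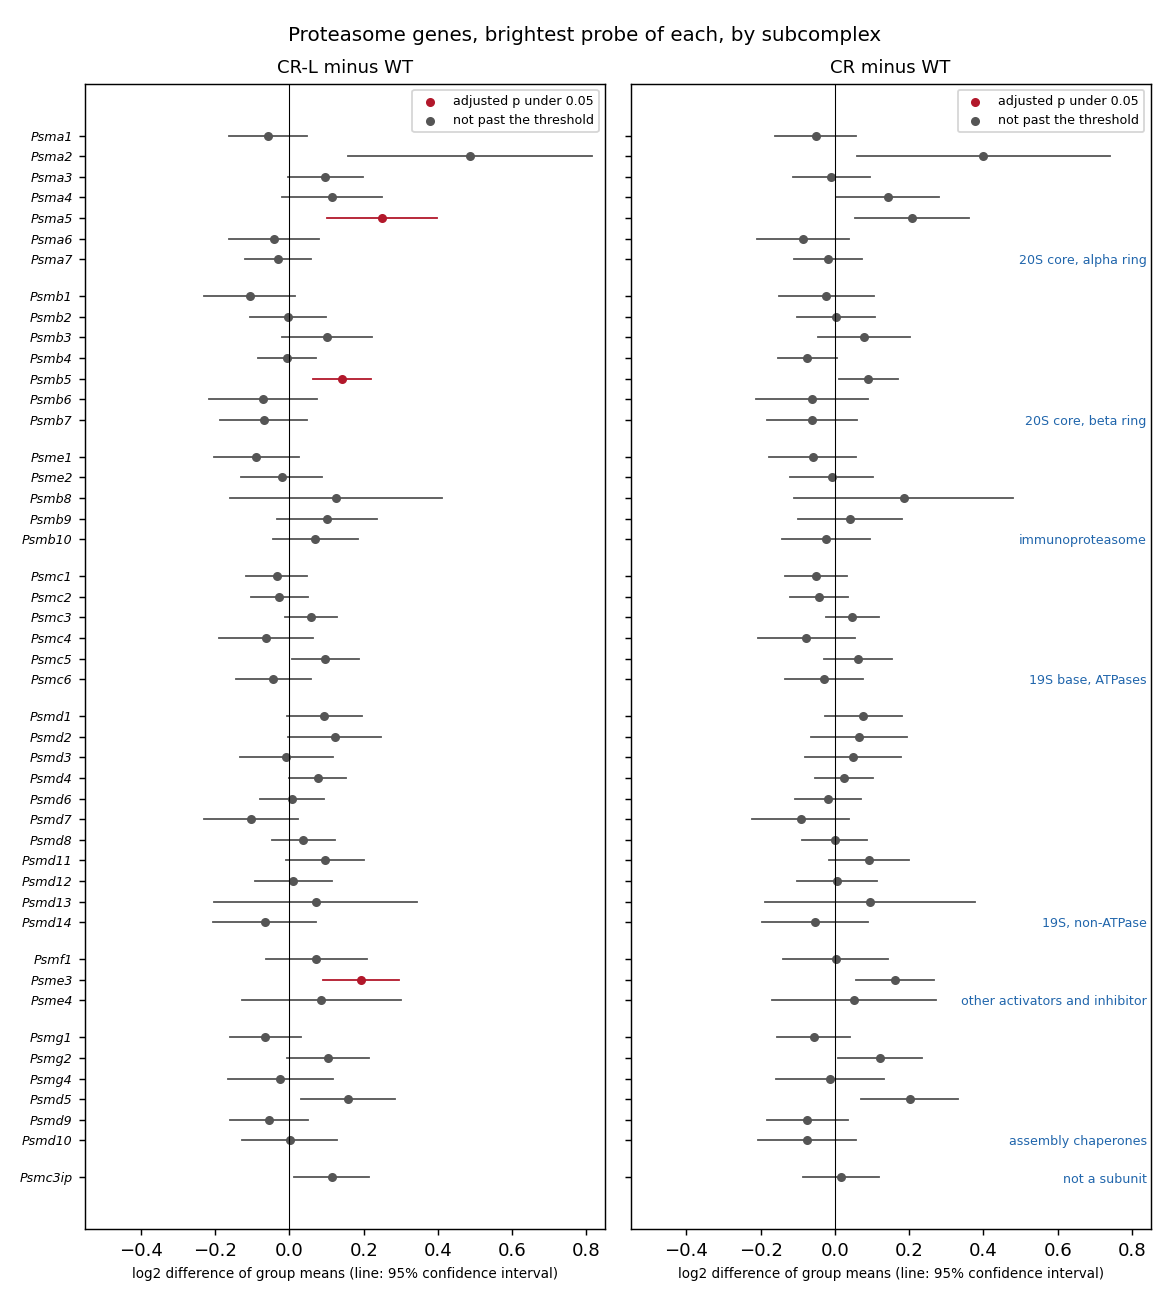
Log2 difference of group means (points) with its 95% confidence interval (lines) for the brightest probe of each of the 46 tested genes, grouped by subcomplex, in CR-L minus WT (left) and CR minus WT (right). Psma5, Psmb5 and Psme3 are past the threshold on the left, and no gene is on the right.

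Between the offspring with leptin and those without it, 0 of 54 member probes and 0 of all 26721 probes passed by limma (0% called). At an unadjusted p under 0.05 there were 2 member probes (3.7%) and 594 probes in all (2.22%). These were Psma3, an alpha subunit, at 0.11 ± 0.043, and Psmc3ip at 0.097 ± 0.043, both with an adjusted p of 0.9999. Psma3 ranged from -0.24 to 0.20 in CR-L (median 0.060) and from -0.24 to 0.071 in CR (median -0.025). Psmb10 followed, at 0.094 ± 0.049. The brightest probe of Psmd2 stood at 0.057 ± 0.054 and its other probe at -0.071 ± 0.056, and the brightest of Psmd7 at -0.010 ± 0.054 and 1 of its others at 0.061 ± 0.037. The lowest differences were those of Psmb1 (-0.084 ± 0.053), Psmb8 (-0.060 ± 0.12) and the cap subunit Psmd3 (-0.057 ± 0.054), and without CR-L replicate 5 they were -0.043, 0.022 and -0.021. Over all member probes 32 of 54 were above 0 (median 0.014), and 43 of 54 without that array (median 0.020). Of all probes tested 46.6% were above 0 (median -0.0044), and 12293 of 26721 without that array (median -0.0047). The genes higher in CR-L than in WT stood close to 0 here, with Psma5 at 0.042 ± 0.063, Psmb5 at 0.052 ± 0.033 and Psme3 at 0.032 ± 0.044. The catalytic subunits Psmb6 and Psmb7 both stood at -0.0086, with SE of 0.063 and 0.051. Psmb9 stood at 0.061 ± 0.058, Psme1 at -0.029 ± 0.049 and Psme2 at -0.012 ± 0.046.

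Most proteasome genes varied little between animals of a group. The within-group SD was below the median of all probes tested in 35 of the 46 genes, and the median gene stood at the 25.2 percentile. Each gene was taken by its brightest probe, and all were well above background on all 31 arrays. Of the 26721 probes they were ranked among, 21232 were. The part of brightness in these ranks was not tested. The ATPase Psmc3, at 0.060 (percentile 0.1), and the ubiquitin receptor Psmd4, at 0.068 (percentile 0.4), varied least. After Psma2, the widest were Psmb8 (SD 0.32, percentile 93.7) and the cap subunit Psmd13 (SD 0.30, percentile 93.0). Psmd13 lay at 0.99 in CR-L replicate 11 and at -0.68 in CR-L replicate 5, against -0.52 to 0.35 in all others. Without CR-L replicate 5 the SD was 0.26 for Psmb8 and 0.28 for Psmd13.

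Subunits of one complex did not all vary together. Over deviations from group means, the median Pearson correlation of the 1035 gene pairs was 0.071, against 0.001 over all pairs of probes tested. This is a description only. Genes on an array share its cell makeup, and the red cell and platelet markers differed widely between arrays. The part of this in the correlations was not tested. The median correlation was 0.25 among alpha subunits and 0.43 among the 5 immunoproteasome genes, and 0.14 and 0.23 without CR-L replicate 5. The highest pair, Psmb1 and Psmb6, went to 0.57 without that array, against 0.82 with it. Psma5 and Psmb2 correlated at 0.74 with and without it. The lowest pair, the ATPase Psmc2 and Psmd3, stood at -0.73, and at -0.56 without it.

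Of 7 pairs taken for their known roles, 4 passed a permutation test (100000 resamples, two-sided, Benjamini-Hochberg over the 7 pairs). Psme1 and Psme2, partners in PA28, correlated at r = 0.73 (permutation p = 4e-05, adjusted 0.00028; rho = 0.59, permutation p = 0.00049) over 31 arrays. Without the 2 arrays farthest from the median of Psme1, r was 0.58, and 0.57 without CR-L replicate 5 alone. Psmb9 and Psmb10 correlated at r = 0.60 (permutation p = 0.00041, adjusted 0.00143; rho = 0.53, permutation p = 0.00271), at 0.48 without the 2 arrays farthest out, and at 0.86 over deviations from slide means. Both of these held over slide means, where Psme1 and Psme2 stood at 0.76. Psmb9 and Tap1, a peptide transporter gene whose start lies 457 bases from that of Psmb9 on the opposite strand (GRCr8), correlated at r = 0.40 (permutation p = 0.0267, adjusted 0.0468; rho = 0.40, permutation p = 0.0277). That relation did not hold over slide means (0.29, adjusted permutation p = 0.209) or without the 2 arrays farthest out (0.33, adjusted permutation p = 0.141). Without CR-L replicate 5 it stood at 0.47 (adjusted permutation p = 0.022).

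The remaining pairs set an immunoproteasome subunit against another catalytic subunit. Psmb10 and Psmb7, which it replaces, correlated at r = -0.45 (permutation p = 0.0119, adjusted 0.0277; rho = -0.44, permutation p = 0.0134). Over slide means this was -0.41 (adjusted permutation p = 0.0546), and without the 2 arrays farthest out -0.51. Psmb8 and Psmb9 stood at r = 0.15 (permutation p = 0.42; rho = 0.23, permutation p = 0.215). Psmb8 and Psmb5 stood at r = -0.038 (permutation p = 0.835; rho = 0.015, permutation p = 0.937), and Psmb9 and Psmb6 at r = 0.048 (permutation p = 0.8; rho = 0.045, permutation p = 0.812).

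**Figure D5:**
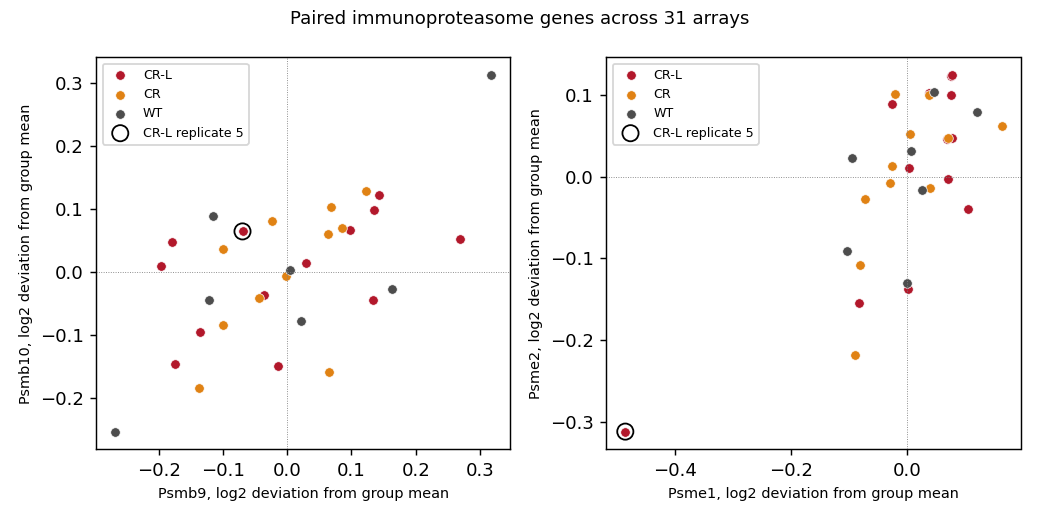
Deviation of each array from its group mean, in log2 units, for Psmb10 against Psmb9 (left) and Psme2 against Psme1 (right), coloured by group, with CR-L replicate 5 ringed. The pairs rise together over 31 arrays (r = 0.60 and r = 0.73), and the ringed array lies far out on the right.

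Around the proteasome, 3 genes of the lists counted below passed in CR-L against WT, all lower. Of all probes, 3.48% were called and 1.44% were lower. Whether these 3 calls hold under other processing or with 1 array left out was not examined. Of 14 measured shuttles, deubiquitinases and other proteasome-bound factors, 0 rose and 1 fell in CR-L against WT. This was Zfand5, a ubiquitin-binding activator of the proteasome (-0.040 ± 0.12 in CR-L and 0.21 ± 0.12 in WT, SD; difference -0.25 ± 0.062, adjusted p = 0.0211 by limma), whose other probe went the opposite way. Of 12 measured genes for the unfoldase p97 and its cofactors, 1 fell, Ufd1, which delivers ubiquitinated proteins to p97 (-0.15 ± 0.039, adjusted p = 0.0231 by limma). Of 9 regulators of proteasome genes, 1 fell, Mafk, a small partner of Nfe2l1 and Nfe2l2 (-0.30 ± 0.085, adjusted p = 0.0382 by limma). Nfe2l1, the factor that restores proteasome genes when the protease is inhibited, stood at 0.059 ± 0.062, and Pomp, the maturation factor of the core, at 0.021 ± 0.049. None of the 10 genes for ubiquitin and its activation passed. In CR against WT and in CR-L against CR, 0 genes of these lists passed.

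The genes that use or drive the immunoproteasome did not pass either. Of 9 measured genes for class I antigen processing 7 were above 0 in CR-L minus WT and 8 in CR minus WT, with medians of 0.073 and 0.087. Tap1 stood at 0.0076 ± 0.079 in CR-L minus WT, Tap2 at 0.098 ± 0.21, B2m, the light chain of class I, at 0.19 ± 0.21, and the transcription factor Irf1 at -0.27 ± 0.10. Their adjusted p lay between 0.158 for Irf1 and 0.979 for Tap1 by limma. Nlrc5 was not measured. Of 16 interferon response genes 3 were above 0 in CR-L minus WT and 1 in CR minus WT, with medians of -0.11 and -0.21, and 0 passed. The medians over all probes in these comparisons were 0.0094 and 0.011.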

How the data were processed

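RNA of peripheral blood mononuclear cells (PBMC) from 31 samples was measured on 2-colour Agilent arrays, with each sample in red and 1 reference pool in green, without a dye swap, per the labels. The authors deposited scanner files with spot intensity and local background intensity and a log10 ratio, made with Agilent Feature Extraction 10.7.3.1, per the submitters' processing notes. A deposited series table holds log2 values with a median of 8.17 in every column, which correlated with that array's log2 red intensity at r = 0.993 or higher across probes. Its normalization is not given in the sources used here.

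Intensities were corrected with limma 3.58.1 (R 4.3.3) by normexp (offset 50) and normalized by loess within arrays. Control spots (1639 of 45018) and outlier spots (0.408% of values) were left out, and spots of a probe were averaged. Tested were 26721 probes whose red signal was well above background in 7 or more arrays, with lmFit and eBayes over all arrays, two-sided, with Benjamini-Hochberg adjustment at 0.05. The brightest probe stands for a gene, and other probes are named where they differ in sign or call. Median red intensity was 69.8 to 93.9, and 235 in WT replicate 6, over a background of 27.0 to 30.5, with 57.5% to 65.0% of spots well above background, and 83.6% in WT replicate 6, and precision is limited by how many arrays there are. Slides numbered 8. Probe positions are those of the files (rn4). Groups follow the titles. Near-identical pseudogenes of subunits could share signal with a probe.

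Named were members past the threshold, Psmb5 to Psmb10, Psme1, Psme2, the 3 largest differences on each side of 0 in each comparison, genes past the threshold on the other lists and a few fixed ones. The members and lists were chosen with earlier results of these data known. In simulated data with 200 of 26721 probes changed (4 runs), 41.8% of log2 changes of 0.25 and 88.6% of 0.5 were recovered in CR-L against WT, 38.4% and 89.4% in CR against WT, and 56.3% and 92.0% in CR-L against CR, while 6.34%, 5.22% and 12.3% of changes of 0.15 were. Permutations used numpy 2.4.6. Alternatives were the Agilent log ratio, the series table, the red channel alone, other filters, slide or replicate number as a block, 1 probe per gene symbol, and leaving out each array.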

Additional observations from a re-analysis of the deposited data

Results flagged for a closer look

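Among the 19 genes named for their differences, 1 had a WT array far from the other 6. Psmc4, an ATPase of the 19S cap, stood at 0.61 in WT replicate 1, against -0.12 to 0.070 in the other WT arrays, a gap of 0.735 of the whole range. Chance alone flags about 1 in 20 such groups. Without that array CR minus WT for Psmc4 was 0.0075, against -0.077 with it. The second Psmc4 probe, at 83151910 to 83152110 of chromosome 1 (rn4), stood at -0.12 in WT replicate 1, within the range of the other WT arrays (-0.27 to -0.012). CR-L and CR hold more than 10 arrays each and were not examined by this rule.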

How the results depend on the processing

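The count of 3 member probes in CR-L against WT was 3 or 2 under the stricter filter, no filter, slide as a block and 1 probe per gene symbol. Of all probes, 5.09%, 1.78%, 3.7% and 3.57% were called there, in that order. The count was 0 with the Agilent log ratio, the series table, the red channel alone and the replicate block, where 3.63%, 2.49%, 3.28% and 4.15% of all probes were called. Leaving out 1 array gave 0 to 3 in CR-L against WT (1 without WT replicates 2, 3 or 5, 0 without WT replicates 4 or 6), 0 to 1 in CR against WT (1 without WT replicate 7 or CR-L replicate 5) and 0 in CR-L against CR. The replicate numbers do not pair the arrays. Same-numbered arrays of different groups correlated at -0.433 to 0.435 (median 0.0476, 7 of 25 pairs above 0.1), and 3 of 31 arrays correlated best with their own number. Over all probes the replicate block gave 1108 calls in CR-L against WT, where the fit without it gave 930, and 264 in CR against WT, where the fit without it gave 129. That second count was 49 with the red channel alone, 208 with probes above background on all 31 arrays, 0 with the series table, and 20 to 247 with 1 array left out, where CR-L against WT had 496 to 1294.

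Of 336 values of named genes under alternatives other than leaving out an array, 315 kept direction and call, 14 lost the call and 7 turned sign. Only Psma5, Psmb5 and Psme3 in CR-L minus WT had a call to lose. They lost it in 5, 5 and 4 of 8 alternatives, in that order. The other named values had no call to keep. All 7 values that turned sign were near 0. With the red channel alone CR minus WT was 0.0083 for Psmc4, 0.018 for Psmb10 and 0.0017 for Psme1, and CR-L minus CR was 0.032 for Psmb7 and 0.016 for Psme2. CR-L minus CR was 0.0027 for Psmb6 with the Agilent log ratio and 0.0098 for Psme2 with the series table. Leaving out 1 array turned the sign of CR minus WT for Psmc4 (-0.11 to 0.0075), Psmb9 (-0.0048 to 0.093), Psmb10 (-0.066 to 0.028) and Psme2 (-0.031 to 0.013), of CR-L minus WT for Psme2 (-0.043 to 0.0047), and of CR-L minus CR for Psmb8 (-0.12 to 0.022), Psmb6 (-0.024 to 0.042), Psmb7 (-0.030 to 0.023), Psme1 (-0.038 to 0.011) and Psme2 (-0.034 to 0.014). Over slide means Psmb10 and Psmb7 (-0.406) and Psmb9 and Tap1 (0.286) no longer passed, nor did Psmb9 and Tap1 without the 2 arrays farthest out (0.329). The r of Psmb8 and Psmb5 turned to 0.043 without those arrays. Without CR-L replicate 5, chosen after the data had been seen, it turned to 0.026, and that of Psmb9 and Psmb6 to -0.042. The causes were not tested. Changes of 0.25 were recovered in 38.4% to 56.3% of simulated cases. The changed probes were drawn from all 26721, with independent noise, and were 200, against 930 calls in CR-L against WT. These rates are averages over all probes and not those of the members, whose smaller changes may still be missed.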
